A study of Mus musculus with 18 samples.

Results

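The mitochondrial carrier family (the Slc25 genes) was followed in the livers of mice fed a diet low in vitamin B2 (riboflavin), with and without the drug fenofibrate. Its members were the protein-coding genes named Slc25a and a number in the annotation of the tables, without Slc25a20 and Slc25a32. The rule found 45 genes of the 54532 listed, of which 22046 were protein-coding. The rule itself used gene names and type and no measured value, but members were chosen with earlier results of these data known.

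The carriers of this family sit in membranes of the cell, nearly all of them in the inner mitochondrial membrane, and let one metabolite cross in exchange for another or together with a proton. They carry adenine nucleotides, phosphate, di- and tricarboxylates, amino acids, coenzymes, iron and glutathione. In liver they link the mitochondrial matrix with glucose production, the urea cycle and lipid synthesis in the cytosol. Riboflavin is the precursor of the flavin coenzymes FMN and FAD, on which the respiratory chain depends.

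RNA was sequenced from whole liver of 18 wild-type C57BL/6J mice, all male, 1 library a mouse. All mice started their diet at 4 wk of age and were fasted overnight before harvest. The Ctrl group (5 mice) ate the control diet for 4 wk and the B2D group (5 mice) a diet with 99% of the riboflavin removed for the same time. The Ctrl+FF and B2D+FF groups (4 mice each) ate these diets for 9 wk and were gavaged daily in weeks 7 to 9 with fenofibrate at 300 mg/kg, a drug that activates the nuclear receptor PPARα, with the last dose 2 hr before harvest. Fenofibrate, the time on diet and the table differed together between the experiments and cannot be told apart, so diets were compared within each table.

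Libraries held 15320729 to 21898502 reads on genes. Levels are the deposited FPKM values, which are scaled to gene length and to a size set for each library. That size was not the number of reads on genes. It was 17069373 in B2D 2 against 15320729 reads, and 20495388 in B2D+FF 4 against 21898502 reads. The 6 hepatocyte markers summed to 32143 to 46497 FPKM in the libraries without fenofibrate and to 18656 to 24266 FPKM in those with it. The 7 skeletal and heart muscle markers summed to at most 0.184 FPKM in 17 libraries and to 1.33 FPKM in B2D+FF 1. The 4 adipose markers summed to 14.5 FPKM in B2D 2 and 4.29 FPKM in Ctrl+FF 1, against at most 0.413 FPKM elsewhere. In whole liver, fewer cells of a type and less RNA per cell cannot be told apart.

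The family had a few abundant members and many scarce ones. On control diet without fenofibrate, Slc25a5, which exchanges ADP for ATP, was at 328 ± 28.7 FPKM (SD, n = 5) and Slc25a47, a carrier made almost only in liver, at 283 ± 64.9 FPKM. Their ranges over mice overlapped. The mitochondrial glutathione importer Slc25a39 came next at 160 FPKM, followed by the aspartate/glutamate carrier Slc25a13 at 124 FPKM and the dicarboxylate carrier Slc25a10 at 78.2 FPKM. The ranges of Slc25a47, Slc25a39, Slc25a13 and Slc25a10 did not overlap from one to the next in that group.

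That order changed with group. In B2D, Slc25a47 at 353 FPKM and Slc25a5 at 349 FPKM overlapped. Slc25a10 was at rank 8 of the family, against rank 5 in Ctrl. Its range overlapped that of its neighbour in rank in both groups, Slc25a15 in Ctrl and Slc25a1 in B2D. In Ctrl+FF, Slc25a5 at 407 ± 36 FPKM (SD, n = 4) stood clear of Slc25a47 at 190 FPKM, which overlapped Slc25a39 at 171 FPKM. In B2D+FF, Slc25a5 reached 634 FPKM and Slc25a47 reached 458 FPKM. Slc25a4, the ADP/ATP carrier of heart and muscle, was at rank 29 of 45 in both groups without fenofibrate, at rank 25 in Ctrl+FF and at rank 12 in B2D+FF.

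**Figure D1:**
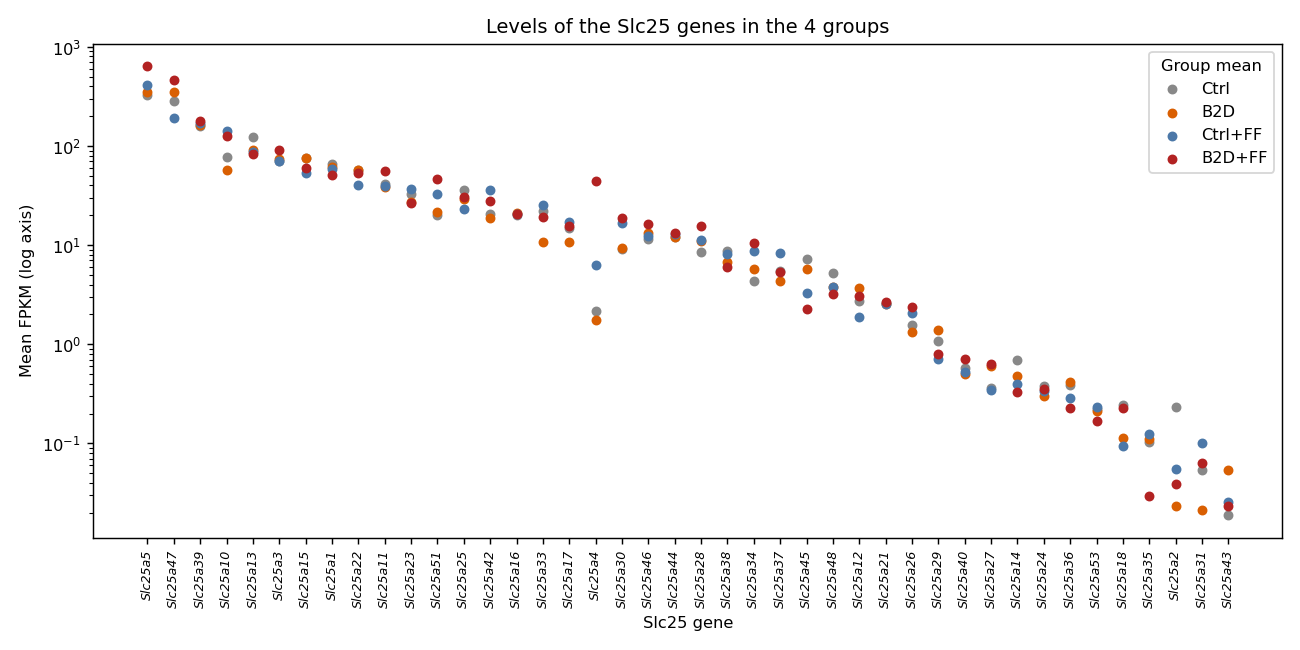
Mean FPKM of the Slc25 genes (log axis) in the 4 groups, genes ordered by their mean level, with 42 genes shown and those with a group mean under 0.01 FPKM among the genes left out. Slc25a4 runs from 1.76 FPKM in B2D to 44.3 FPKM in B2D+FF.

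Summed over all 45 members, the family came to 1538 ± 95.6 FPKM (SD) for the 5 Ctrl mice and 1546 ± 188 FPKM for the 5 B2D mice. For the 4 Ctrl+FF mice the sum was 1556 ± 13.3 FPKM, and for the 4 B2D+FF mice it was 2125 ± 192 FPKM, with ranges of 1541 to 1573 and 1910 to 2337 FPKM. Slc25a5 made up 26.2% of the family sum in Ctrl+FF and 30.03% in B2D+FF, and Slc25a47 made up 12.2% and 21.3%.

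The scarce end held 11 genes that stayed under a mean of 0.5 FPKM in both tables and were not tested (Slc25a2, Slc25a18, Slc25a24, Slc25a27, Slc25a31, Slc25a35, Slc25a36, Slc25a41, Slc25a43, Slc25a53 and Slc25a54). None of them exceeded 1.15 FPKM in any library. Slc25a54 had 0 reads in all 18 libraries. In any single library, a level of up to 3 reads could go unseen by counting alone. Slc25a41, an ATP-Mg/phosphate carrier, had 1 read in Ctrl 3 and none in the other libraries. Slc25a2, an ornithine carrier, had 31 reads over the 5 Ctrl libraries, 16 of them in 1 library, and 3 reads over the 5 B2D libraries. The uncoupling protein relative Slc25a14 was tested without fenofibrate alone, which left 34 members tested there and 33 with fenofibrate.

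Promoter sequence was available for 35 members. It is shown for the called genes described in the comparisons that follow whose 250 bases before the RefSeq start touched no exon of the GENCODE M21 annotation, so that the RefSeq start regions of a gene that fell and of genes that rose can be read side by side. The Slc25a47 window lies inside the gene as the deposited annotation places it (chr12:108836046-108856815, plus strand). It therefore precedes the RefSeq start and not the deposited start of that gene. RefSeq's windows are on build GRCm38.p6, the strand is that of the gene, and capitals mark a CCAAT box, the core promoter element CCAAT searched on both strands.
Slc25a5 (chrX:36795347-36795596, plus strand): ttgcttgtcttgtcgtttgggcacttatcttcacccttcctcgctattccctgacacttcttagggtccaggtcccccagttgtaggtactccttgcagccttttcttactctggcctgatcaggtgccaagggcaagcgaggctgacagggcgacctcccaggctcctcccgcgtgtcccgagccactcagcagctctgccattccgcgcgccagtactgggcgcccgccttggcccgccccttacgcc
Slc25a12 (chr2:71367756-71368005, minus strand): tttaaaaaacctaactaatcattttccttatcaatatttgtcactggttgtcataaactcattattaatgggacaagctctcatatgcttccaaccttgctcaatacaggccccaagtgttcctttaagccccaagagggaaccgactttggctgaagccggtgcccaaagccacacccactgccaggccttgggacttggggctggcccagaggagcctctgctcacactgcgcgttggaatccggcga
Slc25a13 (chr6:6217174-6217423, minus strand): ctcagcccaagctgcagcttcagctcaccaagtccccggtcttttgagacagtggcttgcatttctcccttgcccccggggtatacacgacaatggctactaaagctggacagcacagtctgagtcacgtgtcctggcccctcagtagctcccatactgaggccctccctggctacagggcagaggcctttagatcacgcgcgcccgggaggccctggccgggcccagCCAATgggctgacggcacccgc
Slc25a47 (chr12:108850879-108851128, plus strand): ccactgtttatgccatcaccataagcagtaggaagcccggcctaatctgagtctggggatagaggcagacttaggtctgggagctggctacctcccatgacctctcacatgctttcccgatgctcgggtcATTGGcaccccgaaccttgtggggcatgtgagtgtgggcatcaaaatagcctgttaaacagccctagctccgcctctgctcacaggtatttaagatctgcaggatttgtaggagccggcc

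These windows differed in base composition. A CCAAT box was in the Slc25a13 and Slc25a47 windows, and none of the elements searched was in the Slc25a5 and Slc25a12 windows. G and C made up 61.6% of the Slc25a5 window, 62.8% of the Slc25a13 window, 54.4% of the Slc25a47 window and 49.6% of the Slc25a12 window. A CCAAT box was present in 18 of the 35 members, or 46.7% of their 45 windows, against 33.8% of all 32851 windows of the same length. The site CCGGAAG, read by ETS factors such as GABP, was in 5 members (Slc25a3, Slc25a4, Slc25a17, Slc25a38 and Slc25a54). It was in 11.1% of member windows, against 6.91% of all windows. The site AAGGTCA of the estrogen-related receptors was in Slc25a34 alone, or 2.22% of member windows, against 4.08% of all windows. TATAAA was in 2 members, or 4.44% of member windows, against 12.4% of all windows. The NRF1 core GCGCATGC was in 2 members, or 4.44% of member windows, against 2.26% of all windows. TGATGNAAT, the composite site of C/EBP and ATF4 proteins, was in 0 members and 0.816% of all windows. Of the 250 bases before the RefSeq start of Slc25a4, 222 lie in exons of the GENCODE annotation, so that window is not shown.

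The first comparison asked how 4 wk of riboflavin deficiency alone bore on the carriers. It lowered 3 of them: the pyrimidine nucleotide carrier Slc25a33, the aspartate/glutamate carrier Slc25a13, and Slc25a17, a carrier of coenzyme A, FAD and NAD in the peroxisomal membrane. None rose. Log2 differences here are differences of mean log2(FPKM + 1), which understate the change of low genes, and calls are limma adjusted p-values under 0.05 over all genes tested.

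Slc25a33 stood at 17.9, 22.4, 18.1, 33.4 and 19.7 FPKM in the 5 Ctrl mice and at 11.9, 13.9, 11.1, 9.64 and 7.55 FPKM in the 5 B2D mice. The lowest Ctrl mouse lay above the highest B2D mouse. It fell by 0.97 on the log2 scale (SE 0.186, limma adjusted p = 0.0216), to 0.485 of the control mean. Without Ctrl 2 the adjusted p was 0.0668 and without B2D 4 it was 0.0556, and it passed without each of the other 8 libraries. The antisense gene Gm13068 overlaps it on the other strand and did not exceed 0.694 FPKM.

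Slc25a13, the liver form of the carrier that sends aspartate out of mitochondria for the urea cycle and the malate-aspartate shuttle, was tightly grouped on control diet. It read 119, 126, 124, 129 and 125 FPKM in Ctrl and 89.6, 72.1, 97.4, 98.1 and 94.3 FPKM in B2D. The groups did not overlap. It fell by 0.47 on the log2 scale (SE 0.105, limma adjusted p = 0.0380). This call held without B2D 3 and was lost without each of the other 9 libraries, with adjusted p up to 0.109 (without Ctrl 4).

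Slc25a17 read 13.9, 17.3, 15.8, 13.5 and 14.7 FPKM in Ctrl against 9.94, 10.2, 10.5, 12.4 and 11.3 FPKM in B2D, again with no overlap. It fell by 0.43 on the log2 scale (SE 0.0978, limma adjusted p = 0.0384). The call held without B2D 4 and was lost without each of the other 9 libraries, with adjusted p up to 0.103 (without Ctrl 2).

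In numbers, 3 of the 34 tested members (8.82%) were lower and 0 were higher, beside 1.94% of all 11574 genes called lower and 0.769% called higher. At an unadjusted p under 0.05 limma gave 9 members lower and 2 higher, where 10.1% of all genes were lower and 8.24% higher, and limma voom on recovered reads also called 3 lower and 0 higher after adjustment. The log2 difference was below 0 in 22 of 34 members, with a median of -0.0783 beside -0.00132 over all genes. The groups of 4 members did not overlap, all 4 lower in B2D and the 3 called genes among them, for which the exact permutation test gives p = 0.00794 (two-sided, n = 5 each). Over all genes, 2.89% did so with B2D lower and 2.08% with B2D higher.

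Slc25a10, which exchanges malate and succinate for phosphate, had a mean of 78.2 FPKM in Ctrl and 57.3 FPKM in B2D and a log2 difference of -0.46 (limma adjusted p = 0.112). Its groups overlapped only between the lowest Ctrl mouse at 71.1 FPKM and the highest B2D mouse at 71.3 FPKM.

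By role, the carriers of nucleotides and coenzymes held 2 of the 3 called genes among 7 tested, with 5 of 7 below 0 and a median log2 difference of -0.15. The ADP/ATP carriers did not pass in either direction, at -0.22 for Slc25a4 and 0.08 for Slc25a5, which turned to -0.0293 without B2D 4. Of the 4 iron and glutathione carriers none was called, and their log2 differences ran from -0.28 for the iron importer Slc25a37 to 0.30 for its relative Slc25a28. Of the markers of Kupffer cells, the macrophages of liver, 5 of 5 were below 0 in the same livers, and Clec4f alone was called (limma adjusted p = 0.0412). The others overlapped between diets, with limma adjusted p from 0.483 to 0.852. The sum of the 5 was 46.4 to 59.3 FPKM in Ctrl against 35.8 to 50.7 FPKM in B2D. Of the red cell markers 4 of 4 tested were below 0, Alas2 was called (20.9 to 7.97 FPKM, limma adjusted p = 0.0114), and their sum was 176 to 237 FPKM in Ctrl against 87.2 to 383 FPKM in B2D. The part of either list in the lower carrier levels was not tested.

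**Figure D2:**
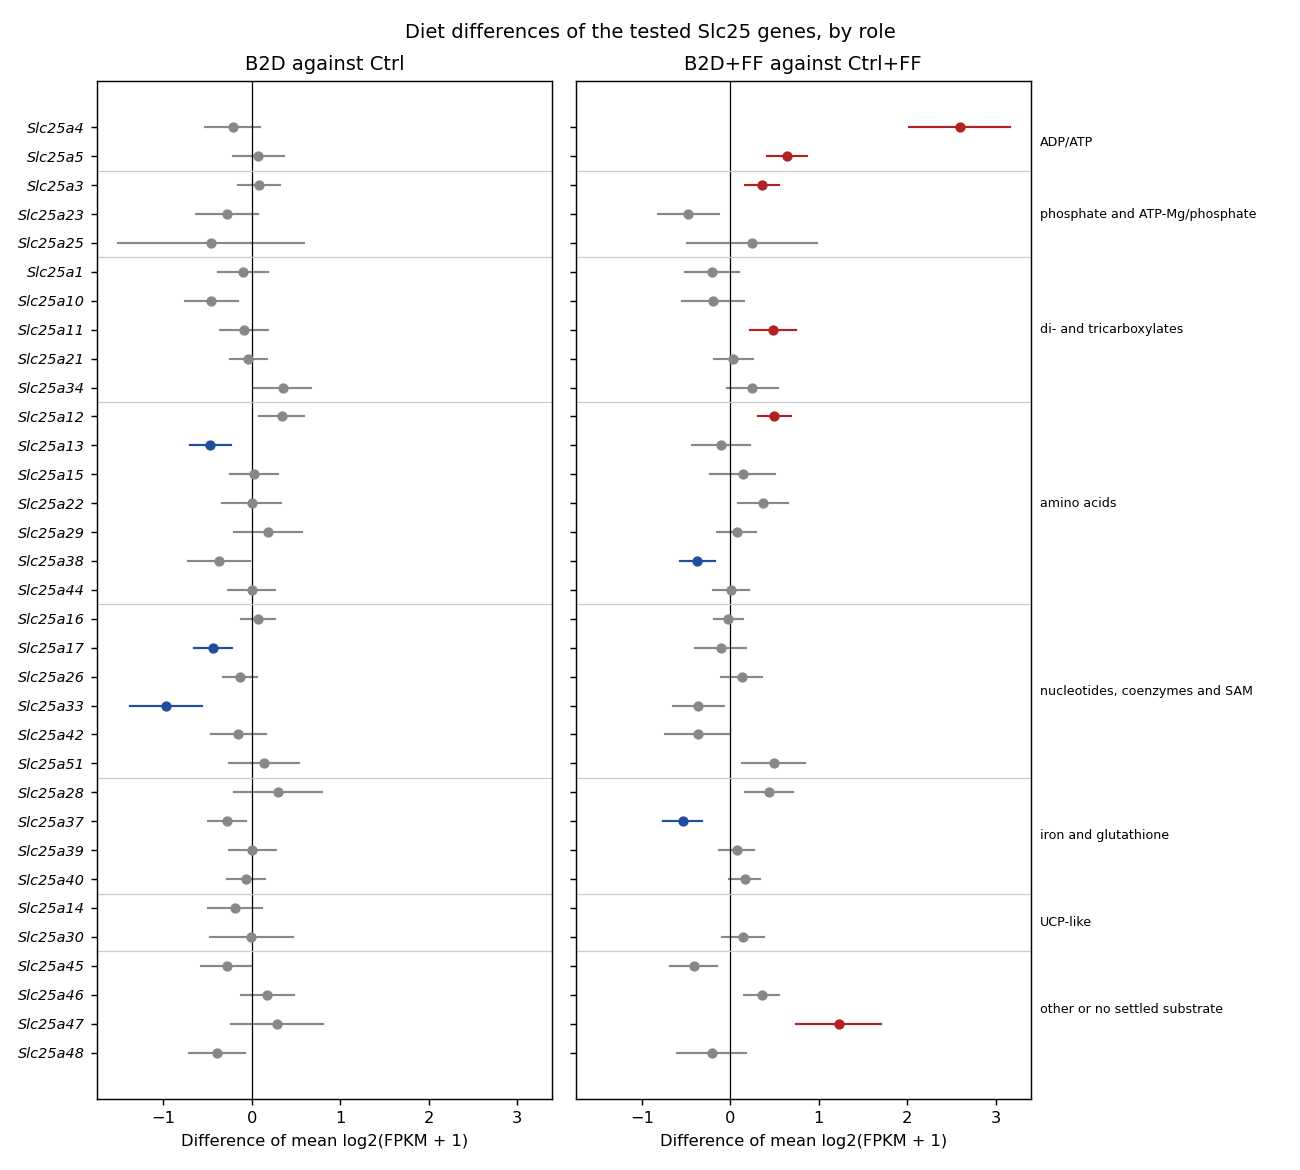
Difference of mean log2(FPKM + 1) for the tested Slc25 genes (1 not drawn) in the 2 diet comparisons, grouped by role, with bars for the confidence interval of the limma fit, blue for called lower, red for called higher and grey for not called. Without fenofibrate the 3 called genes are all lower, and with fenofibrate Slc25a4 lies far to the right at 2.59.

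The second comparison set the diets side by side in mice given fenofibrate. Here the called carriers were mostly higher on the deficient diet. Both ADP/ATP carriers of liver rose, Slc25a4 to 7.00 times its control mean and Slc25a5 to 1.56 times, as did the phosphate carrier Slc25a3, which supplies the ATP synthase, and Slc25a47. The oxoglutarate/malate carrier Slc25a11 and the aspartate/glutamate carrier Slc25a12, which are both parts of the malate-aspartate shuttle, rose too. The iron importer Slc25a37 and the glycine carrier Slc25a38, both known for their part in heme synthesis, fell.

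Slc25a4 read 6.99, 4.60, 8.39 and 5.37 FPKM in the Ctrl+FF mice and 64.5, 35.7, 28.3 and 48.8 FPKM in the B2D+FF mice. The lowest B2D+FF mouse stood far above the highest Ctrl+FF mouse. It rose by 2.59 on the log2 scale (SE 0.252, limma adjusted p = 0.00206), from 6.34 ± 1.69 to 44.3 ± 15.9 FPKM (SD, n = 4 each). The gene lies on chromosome 8 (46206797 to 46211284, minus strand, GRCm38).

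The Slc25a4 call passed without each of the 8 libraries in turn, with adjusted p up to 0.0106 (without Ctrl+FF 1). B2D+FF 1, the highest library for Slc25a4, was also the library with muscle markers. There Acta1 read 0.879 FPKM, Myh4 0.234 FPKM and Ckm 0.161 FPKM, and Mb, Myh6 and Ckmt2 were at 0. In the other 3 B2D+FF libraries Ckm, Acta1, Mb, Myh6 and Ckmt2 were at 0 and Slc25a4 read 28.3 to 48.8 FPKM. Myh4 read 0.00817 FPKM in B2D+FF 2 and 0 in B2D+FF 3 and 4. Tnnt2 read 0.053, 0.019, 0.0499 and 0.0189 FPKM in B2D+FF 1 to 4.

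Slc25a5 read 405, 410, 451 and 363 FPKM in Ctrl+FF and 651, 635, 580 and 671 FPKM in B2D+FF, with no overlap. It rose by 0.64 on the log2 scale (SE 0.103, limma adjusted p = 0.0120) and also passed without each of the 8 libraries. The gene lies on chromosome X (36795651 to 36798807, plus strand, GRCm38). Its processed pseudogene Slc25a5-ps did not exceed 0.147 FPKM, although reads that fit both could be split between them.

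**Figure D3:**
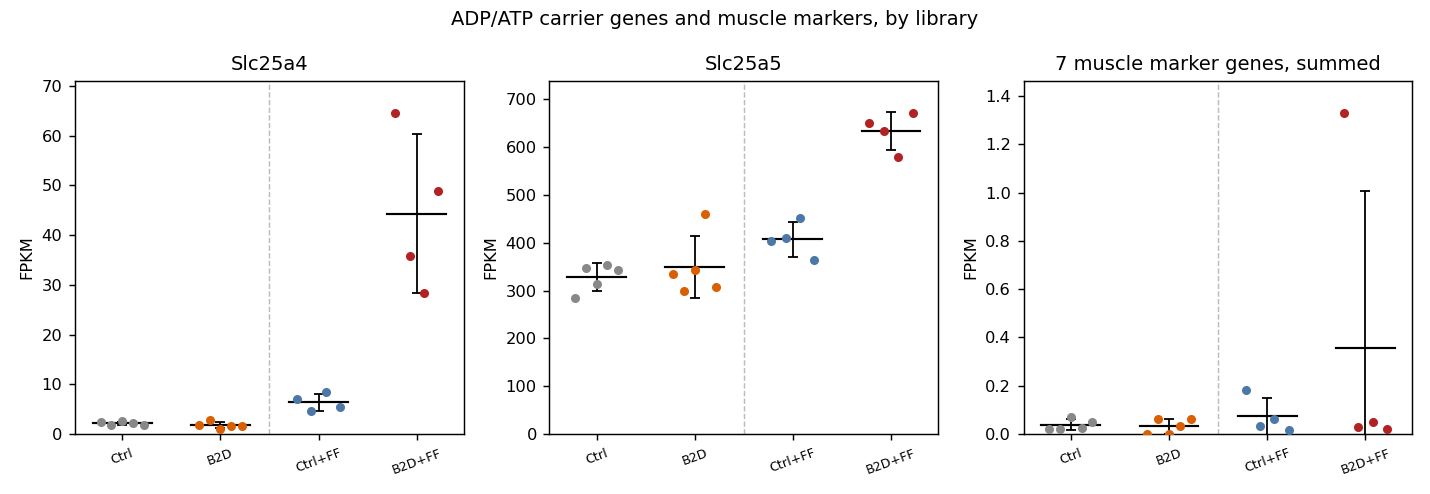
FPKM of Slc25a4 and Slc25a5 and the summed FPKM of the 7 muscle markers in each library, with the mean (line) and SD (bar) of each group. All 4 B2D+FF mice lie above all other mice for both carriers, and the muscle sum is at 1.33 FPKM in B2D+FF 1 and at most 0.184 FPKM elsewhere.

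Slc25a47 read 180, 166, 193 and 218 FPKM in Ctrl+FF and 416, 287, 569 and 559 FPKM in B2D+FF. All B2D+FF mice were higher, and they varied more among themselves. It rose by 1.22 on the log2 scale (SE 0.212, limma adjusted p = 0.0162). Without Ctrl+FF 1 the adjusted p was 0.0577 and without Ctrl+FF 2 it was 0.0593, and it passed without each of the other 6 libraries.

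Slc25a12 was a scarce carrier in liver beside its relative Slc25a13. It read 2.09, 1.71, 1.95 and 1.78 FPKM in Ctrl+FF and 3.46, 2.89, 3.16 and 2.75 FPKM in B2D+FF, with no overlap. It rose by 0.49 on the log2 scale (SE 0.0826, limma adjusted p = 0.0140), and without Ctrl+FF 2 the adjusted p was 0.0551. Slc25a13 in the same mice was at 87.5 ± 4.71 and 82.5 ± 17.6 FPKM (SD, n = 4 each), a log2 difference of -0.11 (limma adjusted p = 0.722).

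Slc25a11 and Slc25a3 passed by a small margin. Slc25a11 read 41.7, 36, 43.5 and 36.2 FPKM in Ctrl+FF and 50.7, 48.4, 60.2 and 63.2 FPKM in B2D+FF (log2 difference 0.49, limma adjusted p = 0.0478). Slc25a3 read 71.6, 74.0, 73.0 and 66.5 FPKM in Ctrl+FF and 94.3, 89.6, 84.6 and 97.8 FPKM in B2D+FF (log2 difference 0.36, limma adjusted p = 0.0490). Neither gene overlapped between diets. The Slc25a11 call held only without B2D+FF 2 and the Slc25a3 call only without B2D+FF 3, and without each of the other 7 libraries they were lost, with adjusted p up to 0.146 (without Ctrl+FF 2) and 0.130 (without Ctrl+FF 1). Under the 8 alternatives of processing, the Slc25a11 call held in 6, with limma adjusted p up to 0.0906 (no filter). The Slc25a3 call held in only 3 of the 8, with limma adjusted p up to 0.0636 (upper-quartile rescaling). Rnf167 overlaps Slc25a11 on the other strand and did not exceed 9.94 FPKM. The library kit named does not mark strand, so reads in the shared part cannot be told apart.

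Slc25a37 read 7.91, 8.18, 7.84 and 9.11 FPKM in Ctrl+FF and 4.35, 5.66, 5.85 and 5.71 FPKM in B2D+FF, with no overlap. It fell by 0.54 on the log2 scale (SE 0.0978, limma adjusted p = 0.0182), and it was lost without Ctrl+FF 1 (0.0575) and without Ctrl+FF 2 (0.0651). Slc25a38 read 7.63, 7.96, 8.23 and 8.46 FPKM against 6.60, 6.62, 5.35 and 5.54 FPKM and fell by 0.37 (limma adjusted p = 0.0448), a call that held only without B2D+FF 2 and was lost without each of the other 7 libraries, with adjusted p up to 0.118 (without Ctrl+FF 2).

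Red cell markers were examined beside these 2 genes. Of the 6 listed, 4 were tested and all 4 were below 0. Alas2, the red cell form of the first enzyme of heme synthesis, fell from 15.1 to 5.26 FPKM (limma adjusted p = 0.000918). The haemoglobin genes overlapped between diets, the list summed to 405 to 573 FPKM in Ctrl+FF and 267 to 637 FPKM in B2D+FF, and Slc4a1 did not exceed 0.129 FPKM. Of the Kupffer cell markers 5 of 5 were below 0, 2 of them at an unadjusted p under 0.05 and with limma adjusted p from 0.101 to 0.562, with sums of 40 to 64.8 FPKM in Ctrl+FF and 23.4 to 40.4 FPKM in B2D+FF. Of the 6 hepatocyte markers 3 were below 0 and 3 above. Among them Serpina1c was called lower (limma adjusted p = 0.00527) and Tat higher (limma adjusted p = 0.0188). Of the 5 endothelial markers 4 were below 0, and Lyve1 alone was called, higher (limma adjusted p = 0.0294). The part of any of these cell types in the fall of Slc25a37 and Slc25a38 was not tested.

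**Figure D4:**
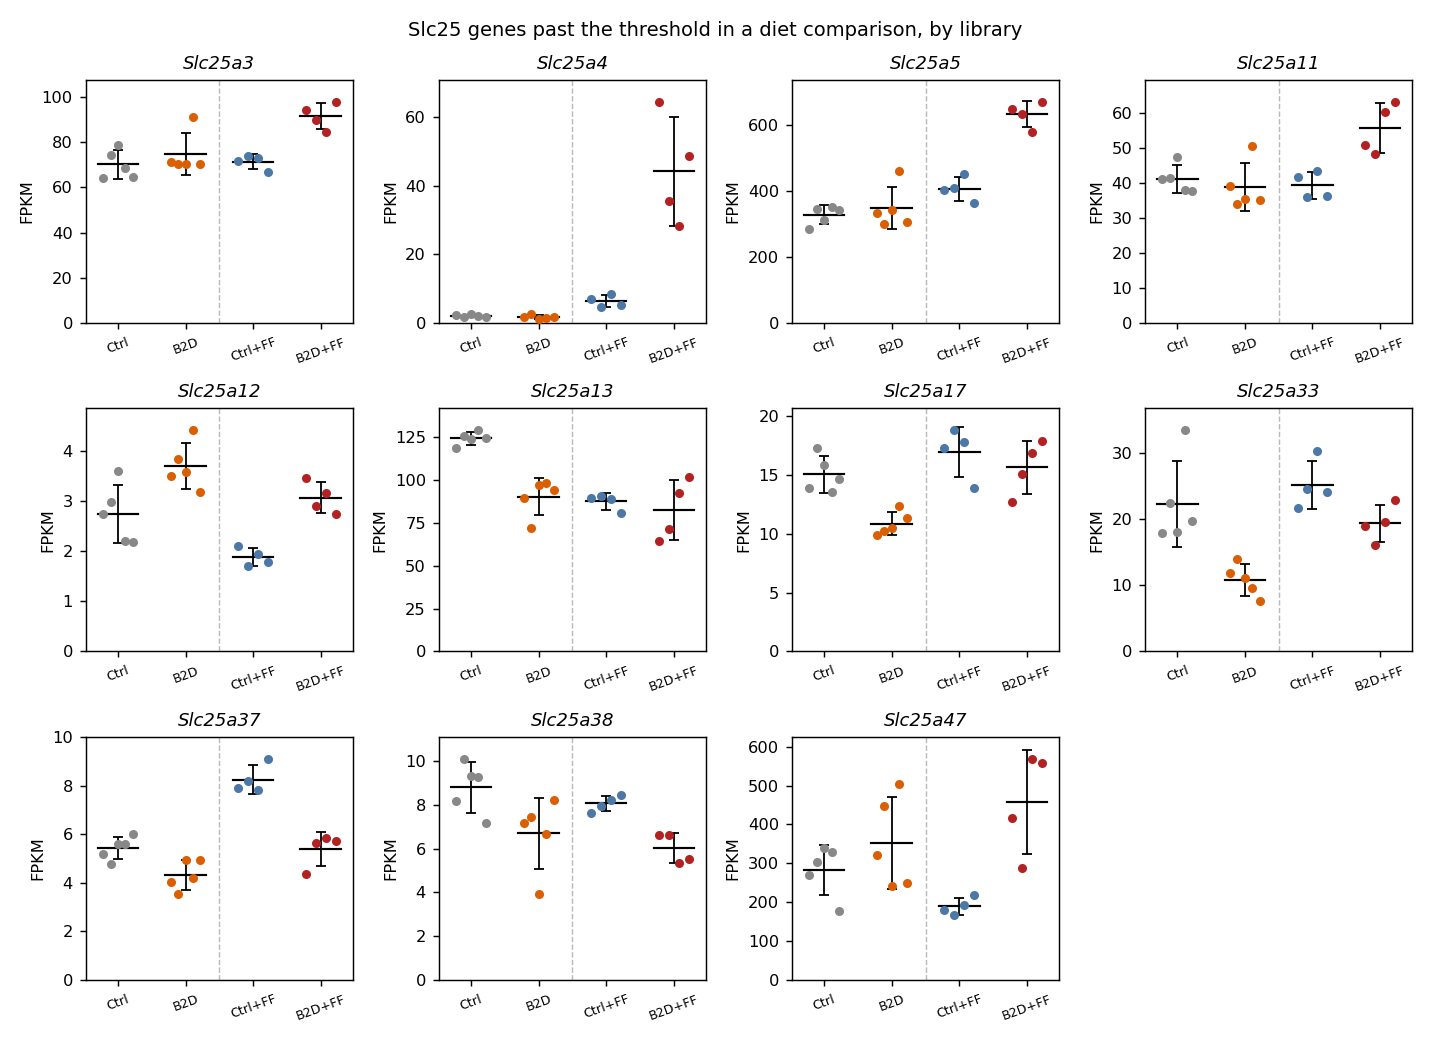
FPKM in each library (points) with group mean (line) and SD (bar) for the 11 Slc25 genes called in a diet comparison, each panel from 0 and the dashed line dividing the tables. Slc25a13, Slc25a17 and Slc25a33 separate Ctrl from B2D, and the other 8 genes separate Ctrl+FF from B2D+FF.

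In numbers, 6 of 33 tested members (18.2%) were higher and 2 (6.06%) were lower, beside 2.24% of all 11878 genes called higher and 2.21% called lower. At an unadjusted p under 0.05 the counts were 10 higher and 6 lower, where 11.3% of all genes were higher and 9.93% lower. The median log2 difference was 0.0725 over members and 0.0128 over all genes. In 9 members every B2D+FF mouse was above every Ctrl+FF mouse and in 3 members below, for each of which the exact permutation test gives p = 0.0286 (two-sided, n = 4 each), the smallest this design allows. Over all genes 7.82% and 6.44% separated in this way.

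Beside the 8 called genes, the separated members were Slc25a28, Slc25a40 and Slc25a46 (higher) and Slc25a23 (lower). Slc25a46, an outer membrane protein involved in mitochondrial shape, was nearest to the threshold, at 12.5 and 16.2 FPKM (log2 difference 0.35, limma adjusted p = 0.0567). Slc25a28, an iron importer related to Slc25a37, was at 11.3 and 15.7 FPKM (log2 difference 0.43, limma adjusted p = 0.0777). Slc25a40, a glutathione importer like Slc25a39, was at 0.531 and 0.713 FPKM (log2 difference 0.16, limma adjusted p = 0.268). Slc25a23, an ATP-Mg/phosphate carrier, was at 37.1 and 26.7 FPKM (log2 difference -0.48, limma adjusted p = 0.112). Crb3 overlaps Slc25a23 on the other strand and did not exceed 8.79 FPKM.

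By role, both tested ADP/ATP carriers were called higher. One each of the 5 tested di- and tricarboxylate carriers and the 3 tested phosphate carriers was called higher, and the 7 tested amino acid carriers gave 1 higher and 1 lower. Of the 7 tested carriers of nucleotides and coenzymes 0 were called by limma. Among them Slc25a51, the mitochondrial NAD importer, was at 32.9 and 46.2 FPKM (unadjusted p = 0.0129, limma adjusted p = 0.116), and Slc25a33 was at 25.2 and 19.4 FPKM (unadjusted p = 0.0198, limma adjusted p = 0.147). Levels on control diet and on the deficient diet were 171 and 179 FPKM for Slc25a39 and 142 and 125 FPKM for Slc25a10, which were not called.

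A further test asked whether the diet effect differed between the experiments, in a single fit of all 18 libraries. Slc25a4 alone passed, with a difference of 2.81 on the log2 scale between the diet effect with fenofibrate and without (SE 0.291, limma adjusted p = 6.8e-05, rank 3 of the 11862 genes tested). Without fenofibrate it read 2.34, 1.86, 2.54, 2.16 and 1.87 FPKM in Ctrl and 1.78, 2.76, 1.07, 1.53 and 1.65 FPKM in B2D, where the groups overlapped and the highest B2D mouse, B2D 2, was the library with adipose markers. The call passed without each of the 18 libraries.

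For the other members called in 1 experiment, the difference itself did not pass. It was 0.94 for Slc25a47 (limma adjusted p = 0.292), 0.60 for Slc25a33 (0.349), 0.58 for Slc25a11 (0.172), 0.56 for Slc25a5 (0.173) and 0.36 for Slc25a13 (0.426). For Slc25a17 it was 0.32 (limma adjusted p = 0.424) and for Slc25a3 0.27 (limma adjusted p = 0.434). Of the called members, Slc25a4 and Slc25a11 changed sign between the experiments and all others had the same direction in both. Without and with fenofibrate the log2 differences were -0.28 and -0.54 for Slc25a37, -0.37 and -0.37 for Slc25a38, and 0.34 and 0.49 for Slc25a12. They were -0.97 and -0.36 for Slc25a33, -0.47 and -0.11 for Slc25a13, and -0.43 and -0.11 for Slc25a17. For Slc25a47 they were 0.29 and 1.22, for Slc25a5 0.08 and 0.64, and for Slc25a3 0.08 and 0.36. In the test of the difference, 25 of the 33 members were above 0, 1 was called higher (3.03%) and 0 lower. At an unadjusted p under 0.05 limma gave 6 higher and 0 lower, where 6.69% of all genes were higher and 5.21% lower. Over all genes 0.126% were called higher and 0.101% lower.

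The makeup of the ADP/ATP carriers followed these changes. FPKM is per length, so the 3 genes can be set side by side. Of their summed FPKM, Slc25a4 made up 0.660% ± 0.139 (SD) for the 5 Ctrl mice and 0.524% ± 0.243 for the 5 B2D mice. Its share was 1.52% ± 0.315 for the 4 Ctrl+FF mice and 6.44% ± 1.93 for the 4 B2D+FF mice. In the B2D+FF mice it was 9.02%, 5.32%, 4.66% and 6.77%, and in the Ctrl+FF mice 1.70%, 1.11%, 1.82% and 1.46%. Slc25a5 remained the main form, with 93.5% in B2D+FF. Slc25a31, the form of testis, had 0 to 14 reads a library. With fenofibrate, the sum of the 3 genes was 414 ± 37.2 FPKM on the control diet and 679 ± 52 FPKM on the deficient diet (SD, 4 mice each).

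Genes that work with the carriers were counted from lists. At an unadjusted p under 0.05, limma put 10.1% of all genes lower and 8.24% higher without fenofibrate. With fenofibrate the shares were 9.93% lower and 11.3% higher. Of the shuttle enzymes, 2 of 6 rose with fenofibrate: Got1, the cytosolic aspartate aminotransferase, from 126 to 309 FPKM (log2 difference 1.31, limma adjusted p = 0.0179), and Mdh2, the mitochondrial malate dehydrogenase, from 68.3 to 112 FPKM (0.70, limma adjusted p = 0.00896). Without fenofibrate limma called 0 of 6, with 2 higher at an unadjusted p under 0.05. The import machinery that inserts carriers into the inner membrane had 0 of 12 called by limma in either comparison, with 0 without and 2 with fenofibrate at an unadjusted p under 0.05, both higher. Of 16 tested ATP synthase genes, Atp5b alone was called, higher with fenofibrate (359 to 491 FPKM, limma adjusted p = 0.0251), where 12 of 16 were above 0 and 7 were higher and 0 lower at an unadjusted p under 0.05.

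Among other mitochondrial membrane transporters, the heme-linked transporter Abcb10 fell without fenofibrate (6.94 to 4.41 FPKM, limma adjusted p = 0.0205), the only one of 17 called. With fenofibrate the uncoupling protein Ucp2 rose from 15.7 to 26 FPKM (limma adjusted p = 0.00487) and the outer membrane channel Vdac2 rose from 18 to 24 FPKM (limma adjusted p = 0.0397), 2 of 16 tested. At an unadjusted p under 0.05, 8 of the 16 were higher and 2 lower, beside 11.3% and 9.93% of all genes. Of 6 regulators of mitochondrial mass, only the nuclear receptor Esrra was called, higher with fenofibrate (20.2 to 29.6 FPKM, limma adjusted p = 0.0181).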

How the data were processed

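The authors mapped reads to mm10 with STAR and counted them with featureCounts, per the labels, and deposited FPKM values per gene in 2 tables, each normalized on its own. Versions, the annotation release and the strand setting are not given in the sources used here. The study's own test models counts. The deposited FPKM values were instead tested with limma 3.58.1 (R 4.3.3) with a mean-variance trend on log2(FPKM + 1), for genes whose FPKM averaged 0.5 or more over the libraries fitted, with Benjamini-Hochberg adjustment at 0.05. Reads were recovered from the steps of FPKM times gene length (whole within 0.02 reads for values up to 1000 reads) and used for depths and for limma voom. Fits were tested on simulated data. Members and lists were chosen with earlier results of these data known. Named genes were those called in any comparison, the ADP/ATP carriers, genes whose diets did not overlap, the 5 most abundant, those nearest to the threshold and those at 0. Libraries are separate mice. Alternatives were another pseudocount, other filters, rescalings, array weights, 1 fit of 4 groups, voom and leaving out each library. Promoter windows came from RefSeq (GRCm38.p6). A few items are counted but not reported by name here.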

Additional observations from a re-analysis of the deposited data

Results flagged for a closer look

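In 5 of the 72 sets of a named gene and a group examined, 1 library stood apart from the others of its group (Dixon's test), where chance alone gives about 1 in 20. In B2D 4, Slc25a3 was at 91.3 FPKM with the other B2D mice at 70.1 to 71.0 FPKM, and Slc25a5 was at 461 FPKM with the others at 300 to 343 FPKM. Slc25a37 was at 4.35 FPKM in B2D+FF 1, below the 5.66 to 5.85 FPKM of the other B2D+FF mice. Slc25a39 was at 153 FPKM in Ctrl+FF 3, with the other Ctrl+FF mice at 174 to 178 FPKM. Slc25a46 was at 15.3 FPKM in Ctrl 5, with the other Ctrl mice at 10.3 to 11.1 FPKM.

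The diet effect on Slc25a4 differed between the experiments by 2.81 on the log2 scale in the test of the difference itself (limma adjusted p = 6.8e-05). Fenofibrate, the time on diet and the table cannot be told apart in it.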

How the results depend on the processing

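With no filter on low genes, the 3 members called lower without fenofibrate became 0 (limma, 10 lower and 2 higher at an unadjusted p under 0.05). Of all 25041 genes tested there, 1483 were lower and 1297 higher at that p. With quantile normalization they became 1, and the other 6 alternatives gave 3 or 4. The fit with no filter had more genes in its adjustment, and quantile normalization rescaled the libraries. Neither was tested as a cause. Leaving out each library gave 0 (without Ctrl 2, where 7 were lower and 1 higher at an unadjusted p under 0.05) to 2 calls. Without Ctrl 2, 936 of all 11588 genes were lower and 693 higher at that p. The 8 members called with fenofibrate became 5 with no filter and 6 to 11 otherwise, and 2 (without Ctrl+FF 2, Slc25a4 and Slc25a5) to 7 when each library was left out. The difference between experiments called 1 member, Slc25a4, in every alternative and without each library. Groups of 4 or 5 members without fenofibrate and 10 to 15 with fenofibrate did not overlap under the alternatives and left-out libraries run. With a library left out, full separation is easier for any gene. The share over all genes was not counted in these refits, so the counts cannot be set against it. By recovered reads, which are not per length, Slc25a4 made up 0.941% of the ADP/ATP carriers in Ctrl, 2.16% in Ctrl+FF and 8.95% in B2D+FF, and Slc25a5 made up 99%, 97.8% and 91.0%. No called value turned sign, but 7 uncalled log2 differences did, in 23 refits. Without fenofibrate these were Slc25a11 (0.0176 with quantile normalization), Slc25a39 (-0.00721 with upper-quartile rescaling, -0.00577 with array weights, -0.0677 to 0.0701 over left-out libraries) and Slc25a5 (-0.0293 to 0.126 over left-out libraries). With fenofibrate Slc25a13 ran from -0.215 to 0.00311 over left-out libraries. In the difference between experiments, quantile normalization gave -0.0455 for Slc25a38 and -0.0531 for Slc25a39, and Slc25a38 was -0.0558 with array weights and -0.00707 with limma voom on recovered reads. Over left-out libraries the ranges were -0.0828 to 0.247 for Slc25a28, -0.151 to 0.0735 for Slc25a38 and -0.000379 to 0.137 for Slc25a39. For the 18 genes followed singly through the refits, 60 refits ended a call and 8 made one, among them Slc25a46 (limma adjusted p = 0.0289 with array weights). Slc25a51, outside these 18, passed with fenofibrate in 1 of 8 alternatives (limma adjusted p = 0.0389). The cause of these changes was not tested. No paired analysis was possible because the libraries are different mice with no shared replicate number. Depth limits the scarcest members, for which a level of up to 3 reads could go unseen in any single library.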
